A study of Mus musculus with 10 samples.

Results

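The RNA levels of 32 cell cycle and DNA replication genes, among 35275 genes with deposited values, were followed in mouse mammary glands during acute inflammation. The genes were taken by symbol through their Ensembl identifiers, and all 32 were found. They comprise 10 genes of DNA replication (S phase), 18 genes of mitosis (G2/M) and 4 genes that govern entry into the cycle (G1 cyclins and inhibitors of cyclin-dependent kinases, CDKs). The glands came from BALB/c mice on lactation day 3. In the LPS group (5 libraries) the 4th mammary glands received 50 µL of lipopolysaccharide of E. coli 055:B5 at 0.4 mg/mL through the teat. In the PBS group (5 libraries) glands received 50 µL of sterile phosphate-buffered saline. Every gland was taken 12 h after injection, and the 2 sides of a pair received the 2 agents in alternation. The labels do not say which libraries came from 1 mouse, nor that libraries of a group came from separate mice, so the p-values measure the spread between these libraries only.

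Cells copy their DNA in S phase and divide in mitosis. The MCM proteins form the ring-shaped helicase that opens DNA at replication forks, and the sliding clamp PCNA holds the polymerases on it. Genes of S phase are mostly switched by E2F transcription factors at the G1/S boundary. Genes of mitosis are switched later by the MuvB complex with B-MYB and FOXM1, through CHR elements near the start site. The p21 protein, encoded by Cdkn1a and induced by p53 and by other signals, blocks cyclin-CDK complexes and so keeps these programmes off. In the mammary gland, epithelial cells multiply in pregnancy, and the secretory cells of a lactating gland divide little.

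Promoter sequences are shown for 5 genes that the results turn on, because they carry the elements known to switch each group of genes. Each line gives the 120 bases before the start site from RefSeq (build GRCm38.p6), on the strand of the gene. Capitals mark E2F motifs (TTTGGCGC or TTTCGCGC), CHR motifs (TTTGAA or TTTAAA) and CCAAT boxes, on either strand, and in Cdkn1a the pattern CATGNNNNNNCATG, the core of a p53 response element. The capitals TTTGGCGCGAAA in Mcm6 are 2 overlapping E2F matches.
Mcm6, chr1:128359706-128359825 (-): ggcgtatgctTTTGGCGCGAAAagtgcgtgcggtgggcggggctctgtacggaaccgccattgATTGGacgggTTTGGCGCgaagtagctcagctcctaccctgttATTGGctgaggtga
Cdk1, chr10:69352913-69353032 (-): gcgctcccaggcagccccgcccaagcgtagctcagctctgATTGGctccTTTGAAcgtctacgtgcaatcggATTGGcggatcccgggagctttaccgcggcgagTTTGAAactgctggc
Ccnb1, chr13:100786487-100786606 (-): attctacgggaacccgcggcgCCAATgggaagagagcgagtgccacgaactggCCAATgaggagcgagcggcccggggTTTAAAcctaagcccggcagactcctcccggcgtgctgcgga
Mki67, chr7:135716380-135716499 (-): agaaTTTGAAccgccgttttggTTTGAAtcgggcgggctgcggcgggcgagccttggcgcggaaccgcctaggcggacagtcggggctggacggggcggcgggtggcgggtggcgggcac
Cdkn1a, chr17:29090859-29090978 (+): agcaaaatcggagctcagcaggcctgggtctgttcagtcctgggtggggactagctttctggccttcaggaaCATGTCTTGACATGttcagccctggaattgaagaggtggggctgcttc

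RefSeq promoters of 27 members were at hand, each searched over both strands from 250 bases before to 50 bases after the start. An E2F motif was found in 4 of 9 replication promoters (44.4%), in 1 of 15 mitosis promoters (6.67%, Cdk1) and in 0.833% of all 27025 promoters. The 4 were Mcm3, Mcm5, Mcm6 and Mcm7. A CHR motif was found in 3 of 9 replication promoters (33.3%), in 14 of 15 mitosis promoters (93.3%) and in 27.8% of all promoters. CCAAT boxes, bound by NF-Y, were common to both groups, in 8 of 9 (88.9%) and 14 of 15 (93.3%), with 37.9% of all promoters. The p53 core pattern, searched after the Cdkn1a values were known, was found in Cdkn1a alone among the members and in 0.77% of all promoters. It lies at chr17:29090931-29090944, 48 bases before the upstream start of Cdkn1a and 2838 bases before its second start. These matches describe letters and are not evidence of binding.

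Levels were deposited as FPKM, that is, fragments counted for a gene, divided by its length and by the depth of the library. The libraries held 15734303 to 18869545 counted reads, and 1 read in a gene of 1 kb was worth 0.053 to 0.0636 FPKM. Of 11414 genes with at least 1 FPKM in at least 5 of the 10 libraries, limma with Benjamini-Hochberg adjustment called 300 (2.63%) higher and 69 (0.605%) lower in LPS glands at an adjusted p below 0.05. Mammary markers were present, with all 12 luminal epithelium markers tested and Wap and Csn1s1 the most abundant. Neutrophil markers were far above PBS levels, at 7513 to 14307 summed FPKM in LPS glands and 757 to 1938 in PBS glands, and 8 of 12 tested rose. Markers of B and T cells ran from 3.39 to 45.6 summed FPKM in LPS glands and from 3.27 to 97.9 in PBS glands, and 4 libraries stood well above the rest. These were LPS 2 (13.6), LPS 3 (45.6), PBS 2 (97.9) and PBS 4 (45.6).

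Among the 32 genes, only the cell cycle inhibitor Cdkn1a passed the limma test, and it rose in LPS glands. That is 1 of 20 members that passed the filter, against 2.63% of all tested genes. None was called lower, against 0.605%. Cdkn1a was also the most abundant member. Its level was 69.2, 80.4, 82.9, 93.6 and 70.0 FPKM in LPS libraries 1 to 5, against 32.5, 45.7, 71.7, 47.9 and 44.5 FPKM in PBS libraries 1 to 5. PBS 3 lay inside the LPS range, and the other PBS libraries lay below every LPS library. The means were 79.2 ± 10.1 FPKM in LPS glands and 48.5 ± 14.3 FPKM in PBS glands (SD, n = 5 each), a ratio of 1.63. On the log2(FPKM + 1) scale the change was 0.73 ± 0.17 (SE), with a 95% interval of 0.37 to 1.10 and a limma adjusted p of 0.0362. In whole glands, more RNA per cell and more cells of a type that carries the RNA cannot be told apart. Neutrophil markers moved with the groups too. LPS 4, the highest for Cdkn1a, had the lowest neutrophil markers of the LPS group (7513 summed FPKM). PBS 3 had 1227 summed FPKM, below PBS 5 (1938) and above the other PBS libraries. The part of neutrophils in the Cdkn1a level was not tested. The gene lies at chr17:29090976-29100727 (+), and an experimentally unsettled transcript annotated on the opposite strand overlaps it.

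The direction for Cdkn1a was upward in all 26 alternative fits, from 0.52 to 0.88, while the call depended on several choices. It passed in edgeR (adjusted p = 0.0428) and DESeq2 (adjusted p = 0.00337) on whole reads recovered from the FPKM, for genes with a mean of at least 10 reads. In the authors' deposited table its log2 change was 0.58 with an adjusted p of 0.00362. Leaving out 1 library at a time ended the limma call in 8 of 10 fits, with adjusted p from 0.0104 (without PBS 3) to 0.0938 (without LPS 2), and the call held without LPS 1 or PBS 3. It was also lost with no filter on low values (adjusted p = 0.104), after quantile normalization (0.0659) and with scaling on summed FPKM outside milk protein genes (0.0734). Without the 4 libraries rich in B and T cell markers, the change was 0.70 with an adjusted p of 0.43, in a fit that called 8 genes in all.

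The sister inhibitor Cdkn1b (p27), which restrains cyclin E-CDK2 in resting cells, had 10.8, 6.01, 7.44, 9.28 and 6.61 FPKM in LPS libraries 1 to 5, against 9.93, 8.83, 6.27, 10.9 and 7.29 FPKM in PBS libraries 1 to 5. The groups overlapped almost wholly, and the change was -0.10 (95% interval -0.46 to 0.26, limma adjusted p = 0.844). Within a library, Cdkn1a stood at 6.39, 13.4, 11.1, 10.1 and 10.6 times Cdkn1b in LPS glands 1 to 5, and at 3.27, 5.17, 11.4, 4.39 and 6.10 times in PBS glands 1 to 5. This ratio was chosen after the values were seen and carries no test. PBS 3 again stood with the LPS glands.

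The 2 G1 cyclins were low, and their groups overlapped. Cyclin D1 (Ccnd1), which starts the G1 programme with CDK4 and CDK6, had 1.67, 2.93, 2.89, 2.78 and 2.54 FPKM in LPS libraries 1 to 5, against 2.17, 3.61, 1.64, 2.60 and 2.39 FPKM in PBS libraries 1 to 5. Its change was 0.04 (95% interval -0.30 to 0.38), and its reads may include those of LTO1, which overlaps it on the opposite strand. Cyclin E1 (Ccne1), the CDK2 partner at the G1/S boundary, had 1.38, 1.43, 1.01, 1.13 and 0.737 FPKM in LPS libraries 1 to 5, against 0.912, 1.54, 0.769, 1.43 and 0.843 FPKM in PBS libraries 1 to 5. The change was 0.03 (95% interval -0.28 to 0.34). Neither cyclin passed the limma test (adjusted p = 0.939 for Ccnd1 and 0.951 for Ccne1), and the intervals leave room for modest changes either way.

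**Figure D1:**
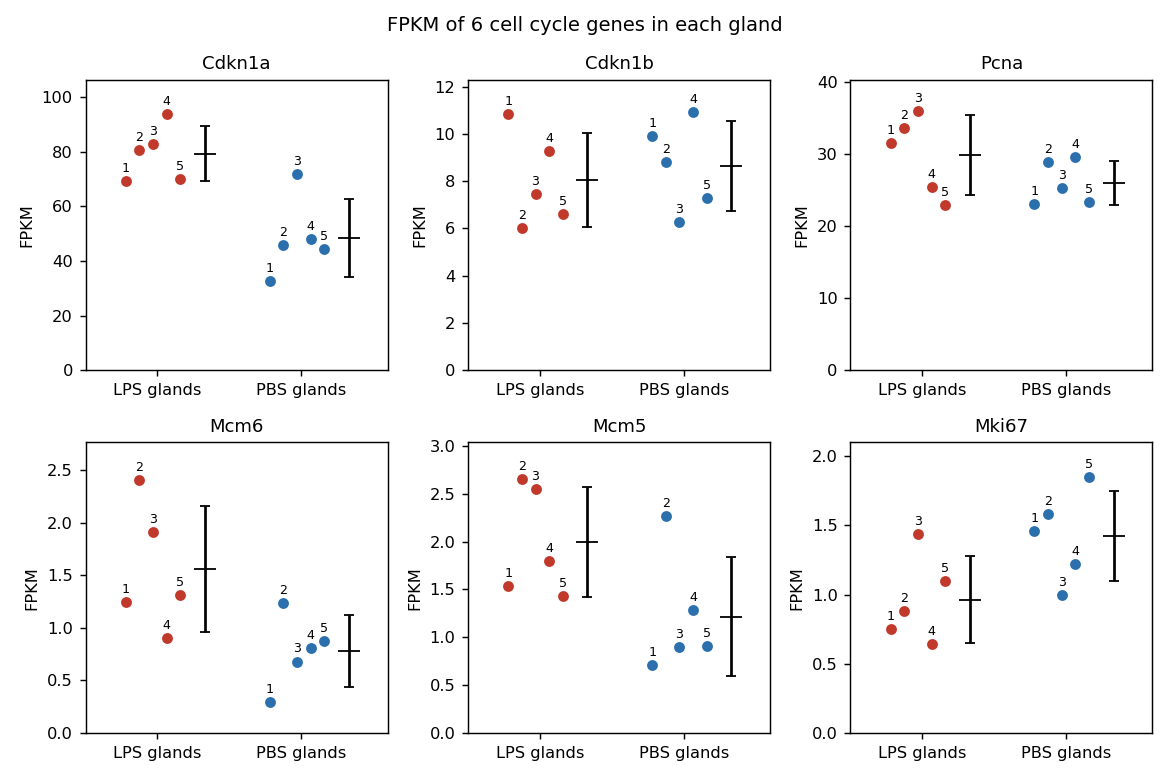
Level in FPKM (vertical axis, from 0) of 6 genes in LPS glands (red, left) and PBS glands (blue, right). Points are libraries with their replicate number and bars are the mean ± SD of 5. All Cdkn1a points of LPS glands lie at 69.2 FPKM or above, and PBS 3 (71.7) is the PBS point among them.

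Of 16 further G1 cyclins, CDKs and inhibitors, 12 were tested and limma called none. Their median change was 0.04, against 0.05 for all tested genes, and -0.14 with scaling on summed FPKM outside milk protein genes, against -0.13. The most abundant were Cdk4, the kinase partner of D cyclins, with 49.9 ± 9.68 FPKM in LPS glands and 46.1 ± 5.30 FPKM in PBS glands (SD, n = 5 each), and the growth regulator Myc. Myc had 10.6 ± 3.57 FPKM in LPS glands and 11.1 ± 1.92 FPKM in PBS glands (SD, n = 5 each).

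Other genes known as targets of p53 were looked at beside Cdkn1a, as a list chosen with earlier results of these data known. All 24 were tested. Limma called 2 higher and none lower, against 2.63% higher and 0.605% lower over all tested genes. At an unadjusted p below 0.05, 13 were higher and none lower, against 12.4% higher and 4.07% lower over all tested genes. Their median change was 0.38 and 23 of 24 were positive, against a median of 0.05 and 61.4% positive over all tested genes. When libraries were scaled on summed FPKM outside milk protein genes, the median of all genes shifted to -0.13. The p53 list then had a median of 0.17, with 20 of 24 positive, against 22.9% of all genes, and none called. On reads, edgeR called 1 of the 24 and DESeq2 called 5, all higher. Over all 13949 genes, edgeR called 2.32% higher and DESeq2 4.33%.

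Plk2, a polo-like kinase active in G1 and S phase, had 7.85, 7.67, 9.51, 12.4 and 15.2 FPKM in LPS libraries 1 to 5, against 5.13, 4.42, 6.01, 6.42 and 6.47 FPKM in PBS libraries 1 to 5. Every LPS library was above every PBS library. The change was 0.75 ± 0.17 (SE), with a limma adjusted p of 0.0347, but edgeR on reads gave an adjusted p of 0.0642. Tnfrsf10b, a death receptor for the ligand TRAIL, had 7.17, 7.49, 6.89, 7.01 and 7.44 FPKM in LPS libraries 1 to 5, against 3.98, 5.10, 5.82, 4.79 and 4.89 FPKM in PBS libraries 1 to 5. These groups did not overlap either, and the change was 0.48 ± 0.09 (SE) with a limma adjusted p of 0.0188. Groups that lay wholly apart with LPS above PBS made up 3.53% of all tested genes, and 2 of the 24 p53 targets.

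Leaving out 1 library ended the call in 8 of 10 fits for Plk2 (adjusted p 0.0234 to 0.0934) and in 2 of 10 for Tnfrsf10b (0.0163 to 0.0567, lost without LPS 2 or PBS 4). Plk2 was called without LPS 1 or LPS 2 only. Scaling outside milk protein genes ended both calls (adjusted p = 0.131 for Plk2 and 0.101 for Tnfrsf10b), as did leaving out the 4 libraries rich in B and T cell markers (0.188 and 0.28). In that smaller fit only 8 of all genes were called, and the changes were no smaller, at 0.86 for Plk2 and 0.49 for Tnfrsf10b. The limma call of Plk2 was lost as well with no filter (0.102), with median-of-ratios scaling (0.0837) and after quantile normalization (0.0839). The authors' deposited table lists 5 of the 24 targets, all higher. Besides Plk2 and Tnfrsf10b, these are Ccng1 (log2 change 0.56, adjusted p = 0.0126), the death-promoting Bax (0.41, adjusted p = 0.0449) and the stress gene Gadd45b (0.66, adjusted p = 0.0179) in the authors' deposited table. Several targets had no limma call, among them Ccng1 (cyclin G1), with 81.2 ± 25.6 FPKM in LPS glands and 49.5 ± 13.4 FPKM in PBS glands, and Mdm2, the ligase that degrades p53, with 23.6 ± 2.93 FPKM in LPS glands and 18.7 ± 2.28 FPKM in PBS glands (SD, n = 5 each). PBS 3 was the highest PBS library for 9 of the 24 targets (37.5%), and for 20.9% of all tested genes. Ccng1 and Mdm2 were picked after their values were seen.

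**Figure D2:**
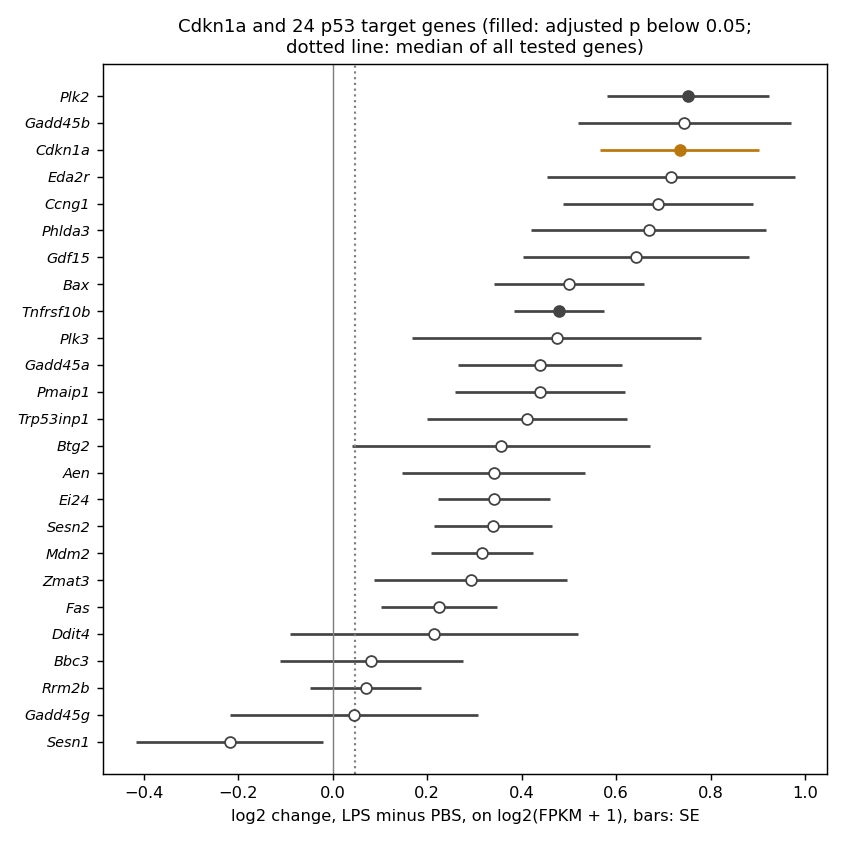
Log2 change, LPS minus PBS on log2(FPKM + 1) (horizontal axis), of Cdkn1a (brown) and 24 p53 targets (grey), with bars of 1 SE; filled points passed the limma test and the dotted line is the median of all tested genes, 0.05. Of the 24 targets, 23 lie above 0 and Sesn1 below, and the filled ones are Plk2 and Tnfrsf10b.

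No replication gene passed the limma test in either direction. All 10 genes passed the filter, 9 had a positive change, and their median change was 0.19, against 0.05 for all tested genes. With scaling on summed FPKM outside milk protein genes 5 of 10 were positive, with a median of -0.01 against 22.9% and -0.13 for all genes. At an unadjusted p below 0.05, 2 of 10 replication genes were higher (Mcm5 and Mcm6) and none lower, against 12.4% higher and 4.07% lower over all tested genes, so the count stands near that background. Mcm6 entered the test through 4 LPS libraries and 1 PBS library, and Mcm5 through 5 LPS libraries and 2 PBS libraries, so their passing the filter already leans to LPS.

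Mcm6 showed the widest relative difference of the helicase genes. It had 1.24, 2.41, 1.91, 0.906 and 1.31 FPKM in LPS libraries 1 to 5, against 0.292, 1.24, 0.679, 0.803 and 0.875 FPKM in PBS libraries 1 to 5. Each LPS library was above 4 of the 5 PBS libraries, and PBS 2 overlapped the LPS range. The means were 1.56 ± 0.597 FPKM in LPS glands and 0.777 ± 0.342 FPKM in PBS glands (SD, n = 5 each), a ratio of 2.0. These levels rested on 63 to 190 reads per LPS library and 23 to 91 per PBS library. The change was 0.52 ± 0.18 (SE), with a limma adjusted p of 0.163.

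The count tests differed on Mcm6. DESeq2 on the reads called it higher (log2 change 0.95, adjusted p = 0.0428), and edgeR on the same reads did not (0.95, adjusted p = 0.125). The authors' deposited table lists it with a log2 change of 0.67 and an adjusted p of 0.0335. DESeq2 called 4.33% of 13949 genes higher and 2.16% lower, and edgeR called 2.32% higher and 0.867% lower, so the 2 of 31 members that DESeq2 called higher (Mcm6 and Cdkn1a) are read against 4.33%.

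Mcm5 was next, at 1.53, 2.66, 2.55, 1.79 and 1.43 FPKM in LPS libraries 1 to 5, against 0.711, 2.27, 0.899, 1.28 and 0.913 FPKM in PBS libraries 1 to 5. PBS 2 lay inside the LPS range. The means were 1.99 ± 0.575 FPKM in LPS glands and 1.21 ± 0.625 FPKM in PBS glands (SD, n = 5 each), with a change of 0.45 ± 0.19 (SE) and a limma adjusted p of 0.235. LPS 2 and LPS 3, the highest LPS libraries for both Mcm5 and Mcm6, had the highest B and T cell markers of the LPS group (13.6 and 45.6 summed FPKM), and PBS 2, the highest PBS library for both, had the highest of all (97.9 summed FPKM). With those markers as a covariate in limma, the changes were 0.58 (adjusted p = 0.0142) for Mcm5 and 0.60 (adjusted p = 0.0386) for Mcm6. Without the 4 libraries rich in these markers they were 0.49 (adjusted p = 0.277) and 0.43 (adjusted p = 0.515).

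The other subunits of the same hexameric helicase had smaller changes. Mcm7 had 6.96, 6.03, 5.97, 6.22 and 4.80 FPKM in LPS libraries 1 to 5, against 7.0, 6.36, 5.87, 6.78 and 5.89 FPKM in PBS libraries 1 to 5, with a change of -0.08 (95% interval -0.30 to 0.14). Reads of Mcm7 may include those of Cops6 and Ap4m1, which overlap it on the opposite strand. Mcm2, at 2.10 to 4.65 FPKM in LPS glands and 2.51 to 3.39 in PBS glands, had a change of 0.00 (95% interval -0.31 to 0.32). Mcm3, at 1.34 to 3.00 FPKM in LPS glands and 1.26 to 2.83 in PBS glands, had a change of 0.09, and Mcm4, at 3.34 to 6.11 FPKM in LPS glands and 3.26 to 4.38 in PBS glands, one of 0.19. Mcm2, Mcm3 and Mcm4 were highest of the LPS group in LPS 2.

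Per length, the 6 subunits were far from equal in level. Mcm6 stood at 0.178, 0.399, 0.320, 0.146 and 0.274 of Mcm7 in LPS glands 1 to 5, and at 0.0417, 0.195, 0.116, 0.118 and 0.149 of it in PBS glands 1 to 5. The ratio was picked after the values were seen. LPS 1 and LPS 4 lay below the top PBS value of 0.195, and the other LPS glands above it.

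Pcna, the replication clamp and a repair factor too, was the most abundant replication gene, at 31.5, 33.7, 36.0, 25.4 and 22.9 FPKM in LPS libraries 1 to 5, against 23.1, 28.9, 25.3, 29.6 and 23.3 FPKM in PBS libraries 1 to 5. LPS 1, LPS 2 and LPS 3 were above all PBS libraries. LPS 4 was among them, and LPS 5 just below. The means were 29.9 ± 5.56 FPKM in LPS glands and 26.0 ± 3.06 FPKM in PBS glands (SD, n = 5 each), with a change of 0.18 (95% interval -0.10 to 0.46, limma adjusted p = 0.55). Annotated pseudogenes of Pcna and Tyms could share reads with them.

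The genes that supply DNA building blocks had small positive changes, none past the test. Rrm1 and Rrm2 encode the subunits of ribonucleotide reductase. Rrm1 had 5.40, 6.65, 5.08, 5.64 and 5.84 FPKM in LPS libraries 1 to 5, against 3.67, 4.43, 6.29, 4.80 and 4.97 FPKM in PBS libraries 1 to 5, with a change of 0.22 (limma adjusted p = 0.41). PBS 3 alone kept the groups from separating. Rrm2 ranged from 2.37 to 3.77 FPKM in LPS glands and from 2.16 to 3.65 in PBS glands, a change of 0.09. Tyms, thymidylate synthase, had 2.91, 2.53, 2.16, 1.76 and 1.47 FPKM in LPS libraries 1 to 5, against 1.67, 1.66, 1.58, 1.49 and 1.82 FPKM in PBS libraries 1 to 5. Its LPS libraries spread widely around a narrow PBS range, and the change was 0.24 (limma adjusted p = 0.388).

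**Figure D3:**
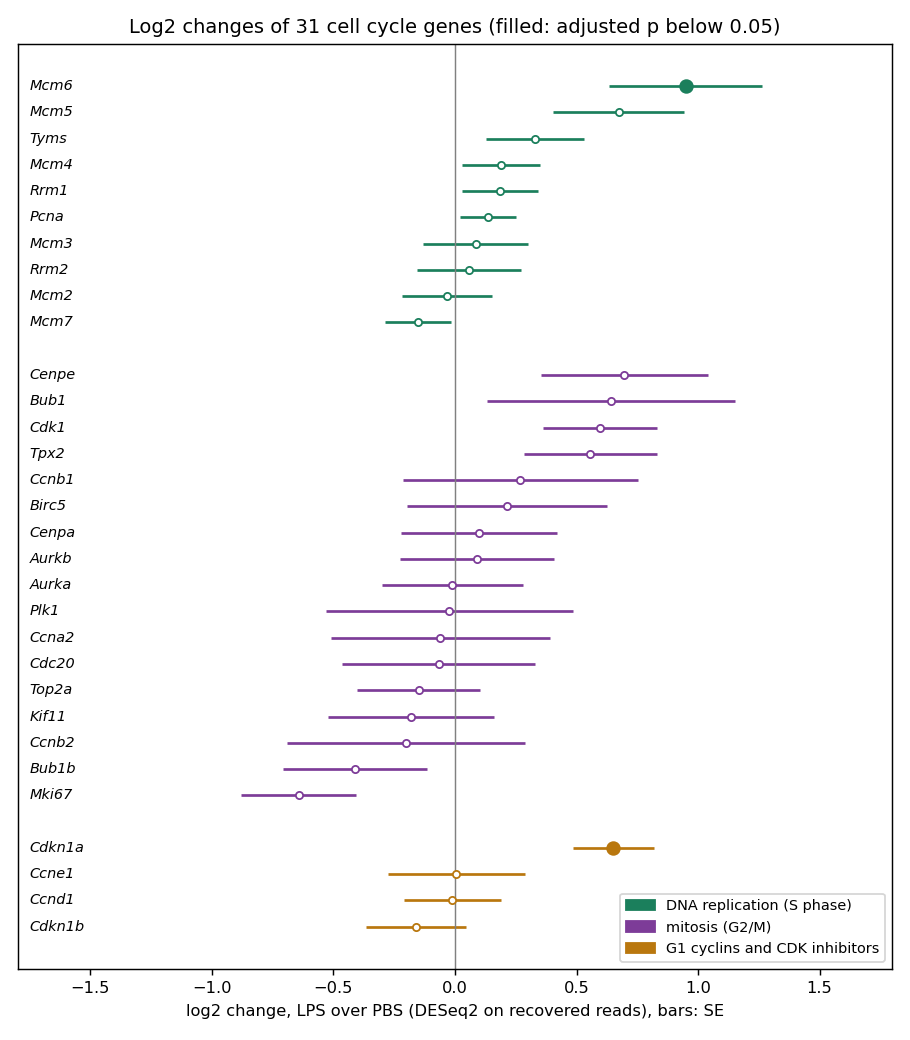
Log2 change, LPS over PBS, fitted by DESeq2 on recovered reads (horizontal axis, bars of 1 SE) for 31 members with a mean of at least 10 reads. Filled points, Mcm6 and Cdkn1a, passed DESeq2's test; replication genes (green) lie mostly above 0, and mitosis genes (purple) on both sides.

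Of 40 further replication genes, 28 were tested and limma called none, with 23 positive and a median change of 0.11, against 61.4% positive and 0.05 for all tested genes. With scaling outside milk protein genes 7 of 28 were positive, with a median of -0.061, against 22.9% and -0.13 for all genes. Without that scaling, 1 of 28 was higher and none lower at an unadjusted limma p below 0.05, against 12.4% and 4.07% of all tested genes. The most abundant were Rfc2, a subunit of the clamp loader, with 12.9 ± 1.32 FPKM in LPS glands and 11.2 ± 1.67 FPKM in PBS glands, and Gins4 of the replicative helicase complex, with 11.3 ± 2.45 FPKM in LPS glands and 11.3 ± 0.889 FPKM in PBS glands (SD, n = 5 each).

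The 18 mitosis members were low in both groups, and their changes had no common sign. The further mitosis genes described below had mostly positive changes. Only 6 of 18 passed the FPKM filter, and limma called none. Their median change was 0.0022, with 3 of 6 positive. On reads, where 17 had a mean of at least 10, edgeR called none and DESeq2 called none. The edgeR median was -0.01 with 8 of 17 positive, against -0.01 for all 13949 genes. At an unadjusted p below 0.05, 1 was higher (Cdk1) and 1 lower (Mki67), of 6 in limma and of 17 in edgeR. Over all tested genes the shares were 12.4% higher and 4.07% lower in limma, and 9.43% higher and 7.43% lower in edgeR. Mki67 entered the limma test through 2 LPS libraries and 4 PBS libraries, so its passing the filter already leans to PBS. Cdk1 entered through 5 LPS libraries and 4 PBS libraries. Kif23, a kinesin of the cleavage furrow, had only 95 reads over the 10 libraries and was not tested.

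Mki67, the proliferation marker that coats mitotic chromosomes, was at 0.752, 0.881, 1.43, 0.641 and 1.10 FPKM in LPS libraries 1 to 5, against 1.46, 1.58, 0.998, 1.22 and 1.85 FPKM in PBS libraries 1 to 5. Most LPS libraries were below most PBS libraries, with LPS 3, LPS 5, PBS 3 and PBS 4 in the overlap. The means were 0.962 ± 0.315 FPKM in LPS glands and 1.42 ± 0.327 FPKM in PBS glands (SD, n = 5 each), with a change of -0.31 ± 0.14 (SE) and a limma adjusted p of 0.295. On reads the change was -0.64, with an adjusted p of 0.156 in edgeR and 0.0823 in DESeq2.

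Cdk1, the kinase that drives entry into mitosis, differed the other way. It had 2.35, 2.10, 1.94, 1.11 and 1.57 FPKM in LPS libraries 1 to 5, against 1.13, 1.42, 1.13, 0.881 and 1.21 FPKM in PBS libraries 1 to 5. LPS 4 alone lay inside the PBS range. The means were 1.82 ± 0.486 FPKM in LPS glands and 1.15 ± 0.193 FPKM in PBS glands (SD, n = 5 each), with a change of 0.37 ± 0.14 (SE) and a limma adjusted p of 0.181. Cdk1 and Mki67 both count as proliferation genes, yet they had opposite signs and neither passed the adjusted test.

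The cyclins that activate Cdk1 had wide ranges that overlapped. Cyclin B1 (Ccnb1) had 0.617, 1.46, 0.999, 0.403 and 1.26 FPKM in LPS libraries 1 to 5, against 0.822, 0.953, 0.143, 0.536 and 1.26 FPKM in PBS libraries 1 to 5. The spread within each group was wider than the gap between the means. Ccnb2 ranged from 0.285 to 1.73 FPKM in LPS glands and from 0.537 to 2.27 in PBS glands, and Ccna2, cyclin A of S phase and G2, from 0.190 to 1.37 in LPS glands and from 0.279 to 1.24 in PBS glands. Ccnb1 and Ccnb2 have annotated pseudogenes, and Exosc9 overlaps Ccna2 on the opposite strand, so reads could be shared.

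The genes of the spindle and its checkpoint scattered around 0 on reads. Tpx2, which nucleates spindle microtubules, had an edgeR log2 change of 0.56 (adjusted p = 0.302), and Cenpe, a kinetochore motor, one of 0.70 (adjusted p = 0.309). DESeq2 gave them unadjusted p of 0.0422 and 0.0426, and adjusted p of 0.259 and 0.261. Bub1, a checkpoint kinase, had 0.64 (adjusted p = 0.526) while its relative Bub1b had -0.41 (adjusted p = 0.512). The kinases Aurka (-0.01), Aurkb (0.09) and Plk1 (-0.02), the survival and chromosomal passenger protein Birc5 (0.22), the motor Kif11 (-0.18), the anaphase activator Cdc20 (-0.07, overlapped by Elovl1 on the opposite strand), the topoisomerase Top2a (-0.15) and the centromeric histone Cenpa (0.10) all had adjusted p above the threshold. Cenpa was the most abundant mitosis gene, at 1.06 to 3.12 FPKM in LPS glands and 1.00 to 2.63 in PBS glands.

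Every member of the 32 had overlapping groups. Over all tested genes, the LPS values lay wholly above the PBS values for 3.53% and wholly below them for 1.22%.

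The mitosis genes spread widely between glands of the same group. Summed over the 18 genes, they took 48.7, 55.3, 66.0, 30.0 and 57.1 RPM (reads per 1000000 counted reads) in LPS libraries 1 to 5, against 48.4, 58.9, 33.3, 43.9 and 69.2 RPM in PBS libraries 1 to 5. The means were 51.4 ± 13.5 in LPS glands and 50.7 ± 13.8 in PBS glands (SD, n = 5 each), while the highest gland was 2.31 times the lowest. Counting error was smaller than this spread. The exact Poisson 95% interval was 27.4 to 32.8 RPM in LPS 4, 30.6 to 36.2 in PBS 3 and 65.2 to 73.4 in PBS 5. Such intervals cover counting error only, since PCR copies are not independent molecules.

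The same libraries were low for gene after gene. LPS 4 was the lowest of the LPS group for 16 of 18 mitosis genes, and for 13.8% of all tested genes. PBS 3 was the lowest of the PBS group for 12 of 18, against 12.1% of all tested genes, and PBS 5 the highest for 12 of 18, against 8.24%. A list of 45 further mitosis genes had LPS 4 lowest for 32, PBS 3 lowest for 17 and PBS 4 lowest for 13. In that list PBS 5 was highest for 17 and PBS 2 for 16, and PBS 2 was highest for 49.3% of all tested genes. LPS 4 also had the highest Cdkn1a of the LPS group (93.6 FPKM), and PBS 3 the highest of the PBS group (71.7 FPKM). The other libraries were mixed. LPS 3, highest of its group for mitosis reads (66.0 RPM), was next to LPS 4 in Cdkn1a (82.9 FPKM). LPS 1, lowest of its group in Cdkn1a (69.2 FPKM), had 48.7 RPM. PBS 5, highest for mitosis reads (69.2 RPM), had 44.5 FPKM of Cdkn1a. PBS 1, lowest in Cdkn1a (32.5 FPKM), had 48.4 RPM. The pairing in LPS 4 and PBS 3 was seen in the values and was not tested.

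**Figure D4:**
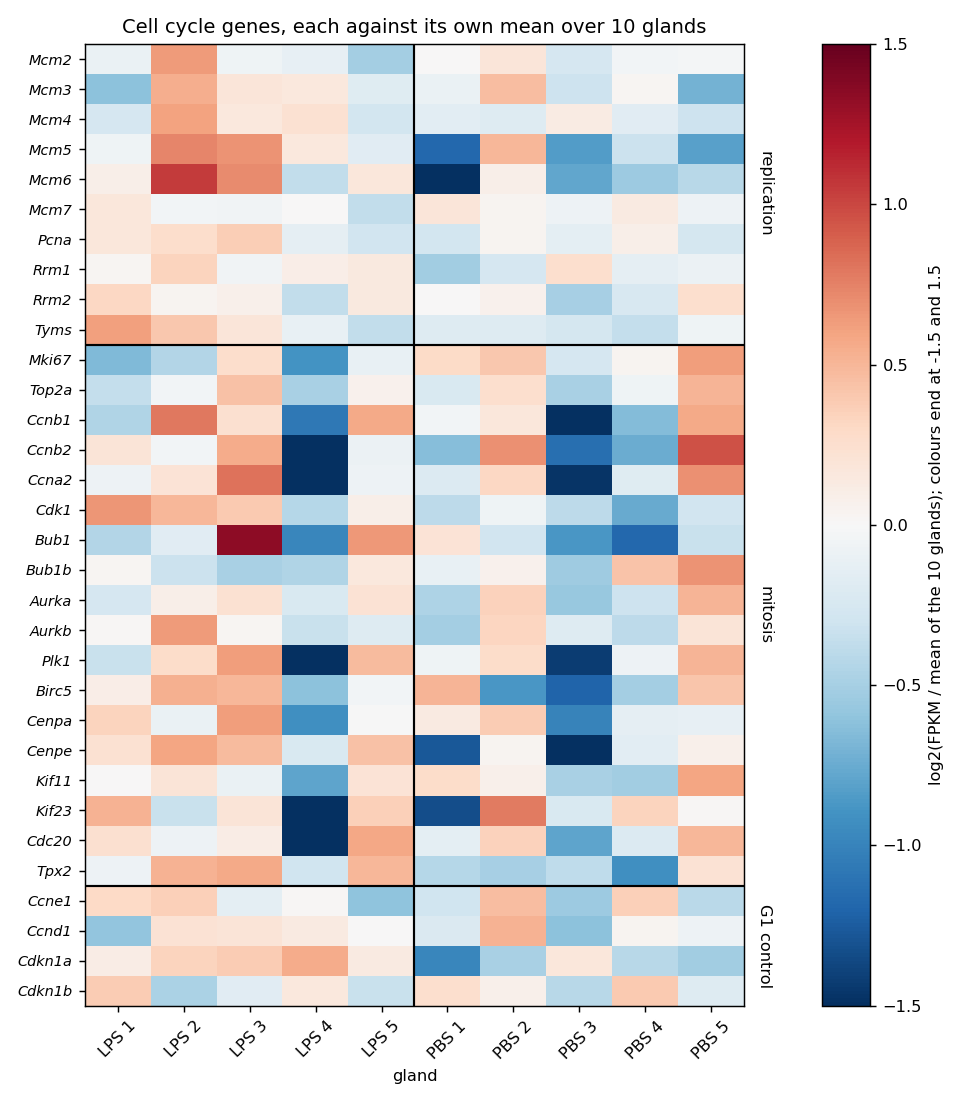
Each member (rows, in 3 blocks) in each library (columns, LPS left and PBS right), as log2 of its FPKM over its mean of the 10 glands, with colours ending at -1.5 and 1.5. In the mitosis block LPS 4 and PBS 3 are blue almost throughout, and PBS 5 is mostly red.

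Replication genes did not follow the same glands. Summed over the 10 genes, they took 146.4, 179.8, 158.9, 135.7 and 121.4 RPM in LPS libraries 1 to 5, against 117.0, 140.8, 127.7, 133.4 and 120.5 RPM in PBS libraries 1 to 5. The means were 148.4 ± 22.3 in LPS glands and 127.9 ± 9.62 in PBS glands (SD, n = 5 each), and the highest gland was 1.54 times the lowest. LPS 2 was the highest of the LPS group for 6 of 10 replication genes and LPS 5 the lowest for 6 of 10. Over all tested genes, LPS 2 was the highest LPS library for 29% and LPS 5 the lowest for 36.8%.

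Lymphoid RNA was high in some of these libraries. B and T cell markers stood at 4.62, 13.6, 45.6, 3.39 and 3.55 summed FPKM in LPS libraries 1 to 5, against 3.77, 97.9, 4.50, 45.6 and 3.27 in PBS libraries 1 to 5. LPS 3, second in the series for the mitosis members, was high in these markers, but PBS 5, the highest for those members, was the lowest of all 10. The 45 further mitosis genes stood otherwise, at 76.9, 81.9, 91.2, 58.5 and 76.6 summed FPKM in LPS libraries 1 to 5. In PBS libraries 1 to 5 their sums were 64.7, 77.8, 57.8, 71.6 and 63.9 FPKM. LPS 3 and LPS 2, then PBS 2 and PBS 4, thus led their groups, and all were rich in B and T cell markers. By gene, PBS 5 was the highest PBS library for 17 of the 45 and PBS 2 for 16. Among early neutrophil precursors, which divide, the summed markers were 6.12, 8.02, 5.32, 6.35 and 7.01 FPKM in LPS libraries 1 to 5. In PBS libraries 1 to 5 they were 3.14, 2.55, 2.54, 14.1 and 3.77 FPKM. PBS 4 was above every LPS library, and the other PBS libraries were below every LPS library. Of these 8 markers 2 were tested, both with positive changes (median 0.59), and limma called none. Ctsg and Ms4a3 were at 0 in all libraries but PBS 4. The part of these cells in the mitosis levels was not tested.

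**Figure D5:**
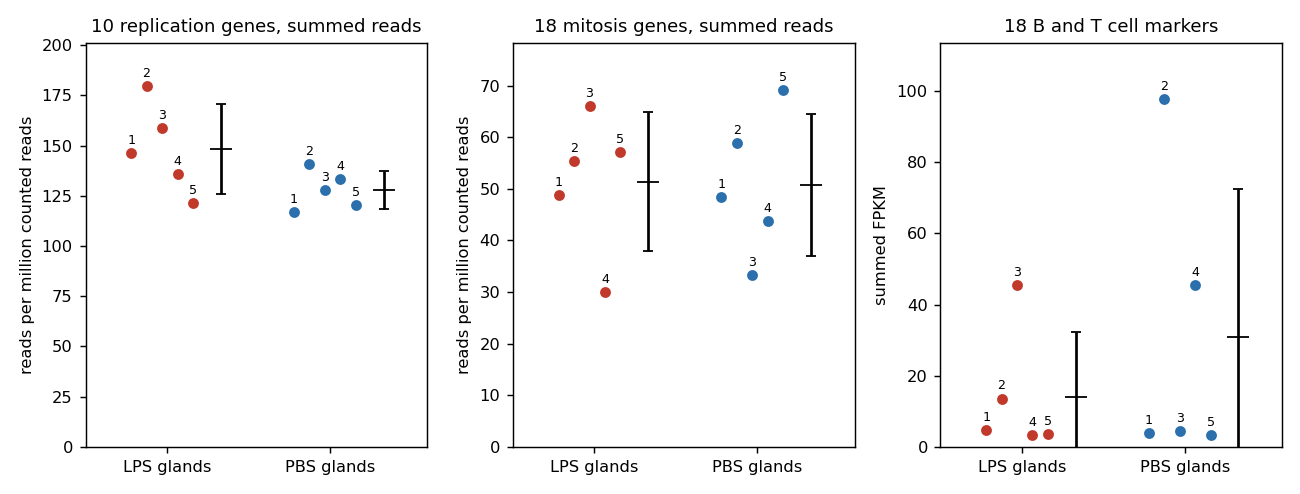
Summed level in RPM (reads per 1000000 counted reads) of the 10 replication genes and of the 18 mitosis genes, and summed FPKM of 18 B and T cell markers, each from 0, in LPS glands (left) and PBS glands (right). Points are libraries with their replicate number and bars the mean ± SD of 5; for mitosis genes LPS 4 (30.0) and PBS 3 (33.3) are lowest and PBS 5 (69.2) highest.

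Of 45 further mitosis genes, 17 were tested and limma called none. Their median change was 0.20, with 14 of 17 positive, against 0.05 and 61.4% for all tested genes. Without the 4 libraries rich in B and T cell markers the median was 0.081, with 13 of 17 positive, against 0.056 for all genes. With all 10 libraries and scaling outside milk protein genes the median was 0.063, with 10 of 17 positive, against -0.13 and 22.9%. Without that scaling, 1 was higher and none lower at an unadjusted p below 0.05, against 12.4% and 4.07%. On reads, 42 were tested and neither edgeR nor DESeq2 called any. The edgeR median was 0.21, with 27 positive, against -0.01 for all genes. At an unadjusted p below 0.05 in edgeR, 6 were higher and none lower, against 9.43% and 7.43%. The most abundant were Cks1b, a small CDK-binding protein, with 14.2 ± 1.36 FPKM in LPS glands and 14.1 ± 5.23 FPKM in PBS glands, and Spc25 of the kinetochore, with 6.33 ± 1.59 FPKM in LPS glands and 5.64 ± 1.17 FPKM in PBS glands (SD, n = 5 each).

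Of 19 regulators of these programmes (E2F, RB and MuvB genes), 14 were tested, and limma called 1 higher and none lower. Over all tested genes, 2.63% were called higher and 0.605% lower. The regulators had a median change of 0.16, against 0.05 for all tested genes. With scaling outside milk protein genes it was -0.028, against -0.13. E2f5, an E2F that mostly represses with RB-family partners, had 8.05, 8.63, 9.64, 7.05 and 7.78 FPKM in LPS libraries 1 to 5, against 5.56, 7.04, 5.34, 5.15 and 4.60 FPKM in PBS libraries 1 to 5. The groups did not overlap, by a narrow margin between LPS 4 and PBS 2. The change was 0.50 ± 0.11 (SE), with a limma adjusted p of 0.0321, and edgeR on reads gave 0.0232. Leaving out 1 library ended the limma call in 7 of 10 fits (adjusted p 0.0147 to 0.0932), all but those without LPS 1, LPS 4 or PBS 2. It was also lost with no filter (0.0766), with scaling outside milk protein genes (0.104) and without the 4 libraries rich in B and T cell markers (0.22), where the change was 0.49 and only 8 of all genes were called. The activating E2f1, at 1.18 to 1.90 FPKM in LPS glands and 1.33 to 2.17 in PBS glands, and the mitotic regulator Foxm1, at 0.128 to 0.738 FPKM in LPS glands and 0.302 to 0.639 in PBS glands, overlapped. E2f1 and Foxm1 were picked for their role after the values were seen.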

How the data were processed

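Total RNA of 10 glands was sequenced with a NEBNext kit. The submitters' processing notes name build mm10, the aligner STAR 2.5, the counter HTSeq 0.6.1 and DESeq2, whose version they give as 2; settings, strand and the role of each tool are not given in the sources used here. The authors deposited FPKM for 35275 genes, scaled to gene length and counted reads. For 908 listed genes, the file headers give the authors' raw read counts, normalized signal, log2 fold changes and p-values. Whole reads were recovered from the deposited FPKM for all 23059 genes above 0 (tolerance 0.002 reads), equal to the authors' counts for 907 of 908 listed genes.

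Genes reaching 1 FPKM in 5 or more libraries were tested, two-sided, with limma 3.58.1 (R 4.3.3) on log2(FPKM + 1), which understates changes of low genes, with Benjamini-Hochberg adjustment over all 11414 genes at 0.05. edgeR 4.0.16 (quasi-likelihood) and DESeq2 1.42.0 were run on the recovered reads. Their version with a mean of at least 10 reads (13949 genes) was added after the values were seen, because most mitosis genes fail the FPKM filter. Tests were tried on simulated data. The members and lists were chosen with earlier results of these data known. Named genes are all members, up to 4 called genes per list or else its 2 most abundant, and the exceptions stated. Coordinates are GENCODE M21 on GRCm38. Of 11 cell type marker lists, limma called genes in 3, all higher (neutrophils 8, luminal epithelium 1, myoepithelium 1). DESeq2 called 2 monocyte and macrophage markers lower, and edgeR none. At an unadjusted p below 0.05 in edgeR, 7 of the 13 were lower, against 7.43% of all 13949 genes. The authors' deposited table lists 2 of these 13 markers as lower, Csf1r (log2 change -0.56, adjusted p 0.036) and Cx3cr1 (-0.84, 0.0042). DESeq2 also called 12 neutrophil markers and 2 myoepithelial markers higher, and 1 luminal marker higher and 2 lower; edgeR called 12 neutrophil markers and 1 myoepithelial marker higher and no luminal marker. The lists with no limma call were: B and T cells, germinal centre B cells, neutrophil precursors, monocytes and macrophages, erythroid cells, adipocytes, endothelium and fibroblasts.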

Additional observations from a re-analysis of the deposited data

How the results depend on the processing

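The count of members called higher was 1. It was 0 with no filter, after quantile normalization, with scaling outside milk proteins, and without the 4 libraries rich in B and T cell markers. It was 2 in DESeq2 on reads under both filters, 2 with the replicate block and 3 with the B and T cell covariate, and ranged from 0 to 1 with 1 library left out. No member was called lower in any fit run. Genes called in all numbered 369, against 126 with no filter, 656 with library weights, 845 in DESeq2 on reads (905 with a mean of at least 10 reads), 746 with the covariate, 8 without the 4 libraries, and 150 to 517 with 1 library left out. The split of higher against lower calls was 300 and 69, against 233 and 145 after quantile normalization, 128 and 348 with scaling outside milk proteins, 305 and 132 in edgeR and 546 and 299 in DESeq2. Same-numbered libraries deviated together with correlations of 0.0993 to 0.494, and 3 of 5 matched their own number best; the labels do not say that a number marks a mouse. The replicate block gave 1229 calls (962 higher, 267 lower), 14 of the 24 p53 targets, and Mcm6 beside Cdkn1a.

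Small changes without a call changed sign in some fits; the cause was not tested. With scaling outside milk proteins the log2 changes were -0.16 for Mcm2, -0.046 for Mcm3, -0.030 for Pcna, -0.072 for Rrm2, -0.055 for Cenpa, -0.073 for Aurka, -0.086 for Ccne1 and -0.11 for Ccnd1. Mcm2 was -0.0036 with a pseudocount of 0.1, -0.042 with median-of-ratios scaling, -0.038 after quantile normalization, -0.039 in edgeR, -0.041 in DESeq2, -0.032 and -0.034 in these with a mean of at least 10 reads, and -0.11 without the 4 libraries. Aurka was -0.015 in edgeR and -0.018 in DESeq2, and -0.010 and -0.011 with a mean of at least 10 reads. Ccnd1 was -0.0023 after quantile normalization, -0.017 in edgeR and -0.020 in DESeq2, and -0.0088 and -0.011 with a mean of at least 10 reads. Ccne1 was -0.0040 in edgeR and -0.0052 in DESeq2. Ccnb2 was 0.0013 with library weights and 0.027 with the covariate, and Cdkn1b was 0.16 without the 4 libraries. With 1 library left out, the changes ran from -0.13 to 0.091 for Mcm2, -0.16 to 0.13 for Ccnb2, -0.019 to 0.13 for Aurka, -0.033 to 0.23 for Cenpa, -0.14 to 0.15 for Cdc20, -0.026 to 0.11 for Ccne1 and -0.051 to 0.15 for Ccnd1. Low read numbers limit the mitosis genes most: 12 of 18 failed the FPKM filter, and a mean FPKM of at least 5 left none.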
